A study of Bos taurus with 12 samples.

Results

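Among the cytosines whose methylation was deposited as differing between subfertile and fertile dairy cows, 3453 of 216990 lay within 1 kb of an annotated transcription start on a numbered autosome. They were chosen by the annotation class of the deposited site table (promoter, up to 1 kb) and by chromosome, and not by their methylation values. A further 44 sites of the same class lay on other sequences and were left out. The distance column put 1764 sites upstream of the start and 1689 downstream, with 2 of the latter at distance 0. The sites were assigned to 1958 genes on 29 autosomes, and 866 of them belonged to genes without a symbol in the table.

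DNA came from whole blood, 1 mL per cow, of 12 cows (Bos taurus) that shared one farm and its management and were aged 3 to 8 years. The 6 subfertile cows were culled within a year of sampling for reproductive complications that were not yet known when the blood was drawn, and the 6 fertile cows stayed in the herd without fertility problems. The labels name no treatment, and whole blood is a mixture of cell types whose proportions were not given. DNA was converted enzymatically, a chemistry that reads 5-methylcytosine and 5-hydroxymethylcytosine alike, and each value gives, for 1 cytosine and 1 cow, the share of calls that were methylated, in percent.

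Methylation of cytosines in CpG dinucleotides near a transcription start is the best studied form of promoter methylation. In mammals, promoters rich in CpG are usually unmethylated, and dense methylation there goes with a silent gene. Promoters poor in CpG, common among tissue-specific genes, are often methylated in cells that do not use them. Sequence near the start, including the first exon, is often described as the most closely tied to transcription. No expression was measured here.

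The authors had selected every deposited site on the same 12 cows, by a difference of more than 25 percentage points and a q-value below 0.01. A difference between the groups is therefore a property of the table, and p-values given here speak of the spread between these cows, with no claim to independent evidence. No read counts were given, so the depth behind a value is unknown. Replicates are cows, and sites of 1 start, or the 2 strands of 1 CpG, are not independent of each other. The letters F and R in the column names mark the cows that the labels call subfertile and fertile. Groups follow the labels, matched by cow number, so the directions do not rest on the letters, whose meaning was not given. All directions would be inverted only if the labels themselves had the groups exchanged. A change of methylation within cells and a change in the mix of blood cells cannot be told apart in whole blood.

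Deposited sites near starts were neither mostly methylated nor mostly unmethylated. Over the 3453 sites, the mean level of the subfertile cows was lowest at 55.0%, with a median of 56.2% and a highest value of 57.6%. The fertile cows had a lowest mean of 55.0%, a median of 56.0% and a highest of 56.7%. The group means, 56.2 ± 1.11% and 55.9 ± 0.645% (SD, n = 6 each), differed by less than the spread between cows. Only 5.97% of the sites had a mean level under 20% and 12% one over 80%, against 5.92% and 9.54% of all deposited sites. The median level of a site was 59.3%. The 351 sites within 100 bp of a start averaged 57.3 ± 1.34% in subfertile and 56.2 ± 0.979% in fertile cows, so a site close to the start was not low in these data. Only selected sites were deposited, and the level of the other cytosines near starts was not analysed here.

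Downstream sites were slightly more methylated than upstream sites. Upstream, the subfertile cows averaged 55.5 ± 0.959% (lowest 54.3%, median 55.5%, highest 56.6%) and the fertile cows 55.2 ± 1.01% (lowest 53.6%, median 55.4%, highest 56.0%). Downstream, the subfertile cows averaged 57.0 ± 1.53% (lowest 55.3%, median 56.8%, highest 58.7%) and the fertile cows 56.8 ± 0.396% (lowest 56.3%, median 56.6%, highest 57.4%). The groups overlapped on both sides of the start. Within cows, downstream exceeded upstream by 1.53 ± 1.01 points (SD over 12 cows). The difference was above 0 in 11 of 12 cows and -0.48 in subfertile cow 2. It was 2.56 points, and above 0 in 12 of 12 cows, when only sites within 500 bp were kept. It was 0.512 points, and above 0 in 9 of 12 cows, without wide-range sites, the name used here for sites with 1 or more cows under 10% and 1 or more over 80%. The cows were read at the same set of sites, so their agreement and SD do not measure the spread between sites. The difference between the sides was not tested.

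**Figure D1:**
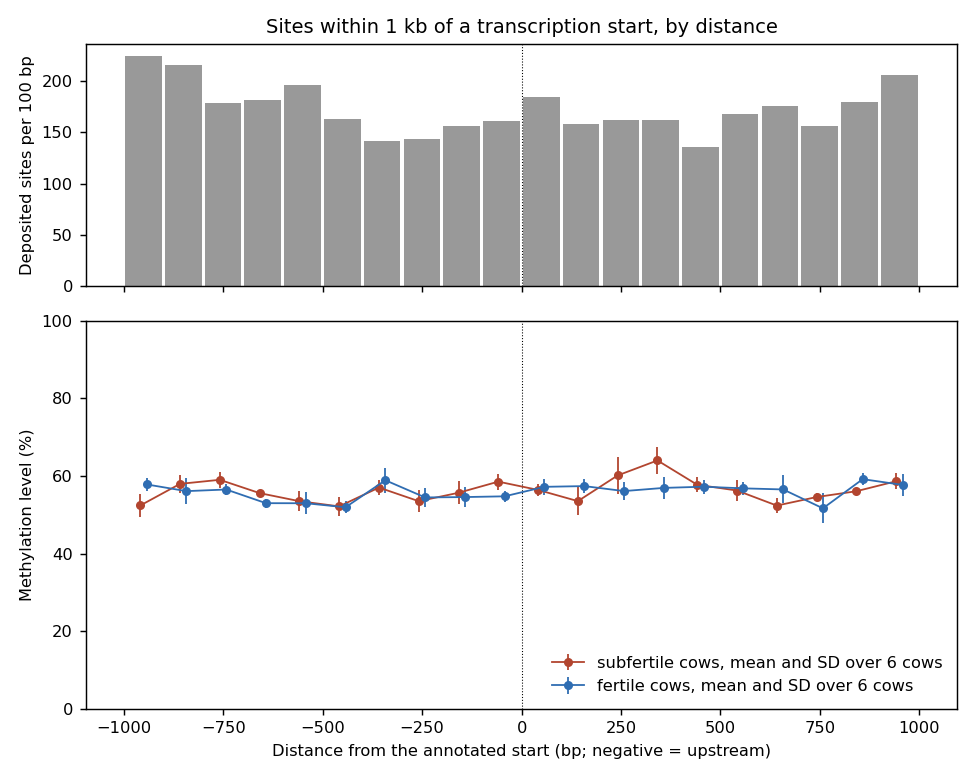
Sites within 1 kb of a transcription start in bins of 100 bp. The upper panel gives the number of deposited sites per bin, from 136 to 225, and the lower panel the mean methylation level (%) of the subfertile (red) and fertile (blue) cows, with the SD over 6 cows. Neither group dips at the start, but sites unmethylated in both groups could not be selected. The largest gap lies from 300 to below 400 bp downstream, at 64.0% against 56.9%.

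By distance in bins of 100 bp, the subfertile means ran from 52.2 to 64.0% and the fertile means from 51.7 to 59.2%. The bin from 300 to below 400 bp downstream had the largest gap in favour of the subfertile cows, 64.0 against 56.9% over 162 sites of 120 genes. In that bin 61.1% of the sites were higher in subfertile cows. Without chromosome 8 its 153 sites averaged 62.9 and 57.9%, with 58.8% higher. The outermost upstream bin had the largest gap the other way, 52.4 against 57.8% over 225 sites, with 41.8% higher in subfertile cows. At the 1 kb limit itself, the 428 sites in the last 100 bp inside it, on either side, averaged 55.2% in subfertile and 57.7% in fertile cows, and the 400 sites in the first 100 bp outside averaged 55.1 and 55.2%.

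In direction, sites near starts were almost evenly divided. The subfertile mean was higher at 1750 sites and lower at 1703, or 50.7% higher. The exact 95% binomial interval of this share, which covers counting error alone, was 49.0 to 52.4%. The share was 50.9% upstream and 50.5% downstream, against 52.1% of all deposited sites. The median absolute difference was 33.0 points near starts and 33.3 over the whole table. Counted by gene, 1008 genes had a higher and 950 a lower mean in subfertile cows. Autosomes differed in this share, from 22.2% of 45 sites higher on chromosome 16 to 69.4% of 36 sites on chromosome 20.

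Neighbouring sites mostly shared their direction. Both strands of 711 CpG dinucleotides were present, and the strands had the same direction in 711 of 711. These pairs held 41.2% of the sites, and the levels of the strands differed by a median of 5.88 points. Excluding the opposite strand, pairs of sites of 1 gene on the same side of the start had the same direction in 90.8% of 240 pairs up to 50 bp apart and in 77.9% of 249 pairs more than 500 and up to 1000 bp apart. Across the start the share was 76.7% of 30 pairs 51 to 200 bp apart and 74.3% of 475 pairs more than 1000 and up to 2000 bp apart. Of the 236 genes with sites on both sides, the 2 sides had the same direction in 181 (76.7%) and opposite directions in 55. Among the 178 of these genes with 1 annotated start, 143 (80.3%) had the same direction on both sides.

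No single site near a start passed the test between the groups. Limma, fitted on the log ratio of methylated to unmethylated percent at every deposited site, called 0 of 3453 sites (adjusted p up to 0.01 and at least 25 points of difference) and 0.0% of the whole table. At an unadjusted p under 0.05 there were 1814 sites (52.5%), against 52.7% of the table, and the smallest adjusted p was 0.0659. Plain percent values also gave 0 sites. Without wide-range sites, which were 67.2% of the sites near starts and 69.9% of the table, 2 of 1133 passed, a filter that itself selects for sites with little spread.

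At 128 sites (3.71%) no subfertile cow overlapped a fertile cow, against 3.1% of all deposited sites. At 71 of them the subfertile cows were higher (1.94% of the table was separated in that direction) and at 57 lower (1.16%), and they fell in 111 genes. Upstream 50 sites were of this kind (2.83%, 95% exact binomial interval 2.11 to 3.72%) and downstream 78 (4.62%, 3.67 to 5.73%). These intervals treat sites as independent, which neighbouring sites and the 2 strands of 1 CpG are not, so they are too narrow. Without chromosome 8 the shares were 2.80% upstream and 4.04% downstream. With each gene's sites averaged per side, 37 of 1128 upstream means (3.28%) and 60 of 1066 downstream means (5.63%) had groups without overlap. The difference between the sides was not tested over cows. Chromosome 8 held 16 of the 128 sites, 9.52% of its 168 sites near starts, and 13 of the 16 were higher in subfertile cows. From 22 to 23 Mb of that chromosome 11 of 32 sites were of this kind.

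**Figure D2:**
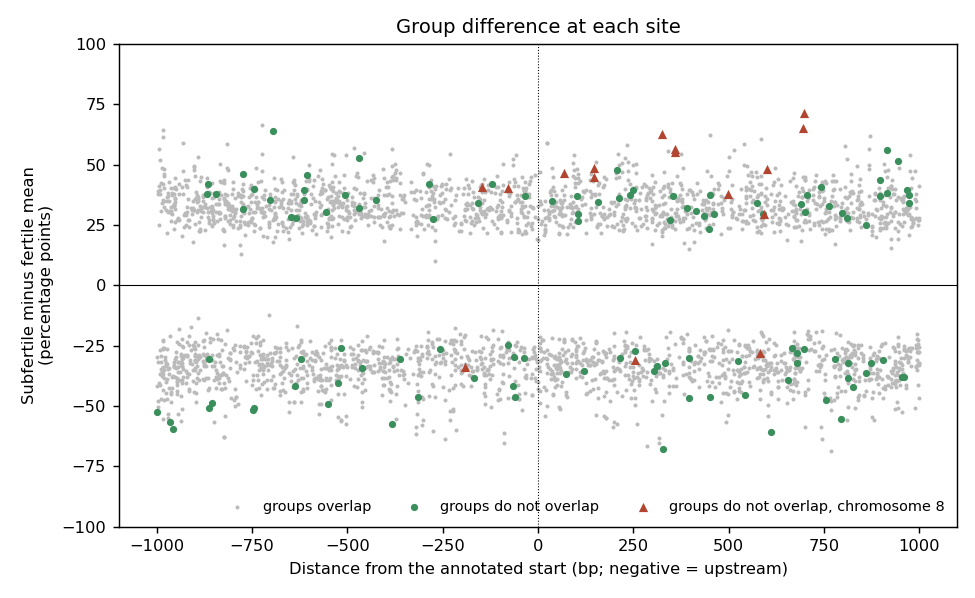
Subfertile minus fertile mean (percentage points) at each of the 3453 sites against distance from the start (bp, negative upstream). Grey points are sites whose groups overlap, and green circles and red triangles are the 128 whose groups do not, the triangles on chromosome 8. The empty band around 0 follows from the authors' selection. The triangles at the top right include IFNT3 at 71.4 points.

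Among sites with values in all 12 cows and groups without overlap, the 5 with the largest differences on each side of the start were named, 1 per gene. Upstream positions are negative distances to the start. The site at -694 bp of DRC7, a subunit of the dynein regulatory complex of motile cilia and sperm tails, had subfertile values of 50 (lowest), 68.3 (median) and 100% (highest) and fertile values of 0, 0 and 31.2%. At -469 bp of PPFIBP2, a liprin scaffold protein, the groups nearly touched. The subfertile cows had 60, 63.1 and 100% and the fertile cows 0, 10.5 and 58.3%. At -999 bp of SGO1, shugoshin, which protects the cohesion of sister chromatids at centromeres, they had 16.7, 25.8 and 33.3% against 36.4, 80.9 and 100%. In SGO1 the separation was narrow, since fertile cow 6 lay at 36.4% and the other fertile cows between 76.9 and 100%. At -747 bp of LOC528282, annotated as a phosphatidylcholine transfer protein, the values were 0, 35.0 and 56.2% against 66.7, 86.7 and 100%. At -866 bp of the olfactory receptor gene OR6B17 they were 76.9, 86.2 and 100% against 27.3, 36.8 and 75%, which do not overlap but nearly touch.

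Downstream, 4 of the 5 largest lay in type I interferon genes of chromosome 8, in which the reading frame is short and without introns. At 697 bp after the start of IFNT3, an interferon tau gene, the subfertile cows had 88.2, 100 and 100% and the fertile cows 16, 23.3 and 45.5%. At 324 bp after the start of LOC515485, an interferon omega-like gene, they had 87.5, 96.4 and 100% against 0, 35.6 and 61.5%. LOC100299481, annotated as interferon omega-1, had 83.3, 96.4 and 100% against 23.1, 34.5 and 61.5% at 359 bp, and IFN-tau-c1 69.2, 81.7 and 100% against 20, 34.8 and 44.4% at 600 bp. At these 4 sites no subfertile cow was under 69.2% and no fertile cow over 61.5%. The remaining site, 916 bp after the start of HS1BP3, which encodes a binding partner of a haematopoietic signalling protein, had 54.5, 77.5 and 84.6% against 0, 23.3 and 28.6%. The limma adjusted p of these 10 sites ran from 0.0659 to 0.0820, so none was called.

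Averaging the sites of a gene raised the number of calls. Of the 1958 genes, 1185 had 1 site near the start, 477 had 2 and 296 had at least 3. The means of those 296 genes were tested together with all other gene and region units of at least 3 sites, 12843 in all. At a limma adjusted p of at most 0.05, 19 of the 296 (6.42%) were called, against 3.01% of all units. Of these, 8 were higher in subfertile cows (1.78% of all units were called in that direction) and 11 lower (1.24%). Units 1 to 2 kb from a start were called in 5.63% of cases, exons in 6.28% and introns in 2.56%. Among units of 3 or 4 sites the share was 8.46% near starts and 3.76% in all.

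The 19 genes lay on 10 chromosomes, 3 of them on chromosome 8. Sites lay on both sides of the start in 9 of them, only upstream in 4 and only downstream in 6. The groups did not overlap in 11 of the 19, and in 16 of the 296 tested genes (5.41%, against 3.65% of all units). The count rests on single cows, because it was 6 without subfertile cow 6, 11 without subfertile cow 3, 12 without subfertile cow 1 and 30 without subfertile cow 4. It was 55 on plain percent values and 11 with 1 point in place of 5 added in the log ratio. Without chromosome 8 it was 13 of 283. Of the 19, 9 carried no symbol. Among these 9, the subfertile mean was above the fertile mean in 2 and below it in 7, with differences of -49.4 to -33.0 points in the latter.

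The 3 genes with the smallest adjusted p were type I interferons within 100 kb of each other. Type I interferons are antiviral cytokines, and interferon tau is the signal by which the ruminant conceptus announces itself to the mother. In IFNT3 (3 sites 69 to 697 bp downstream, chromosome 8, 22582848 to 22583476, build ARS-UCD1.2) the 6 subfertile cows had means of 92.8, 89.7, 100, 96.1, 91.1 and 87.9%. The 6 fertile cows had 31.7, 26.3, 40.1, 26, 31.1 and 31.8%. The groups lay far apart, at 92.9 ± 4.45 against 31.2 ± 5.09%, a log2 ratio difference of 4.16 (SE 0.36, adjusted p = 0.000214).

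LOC100299481 (4 sites 147 to 360 bp downstream, chromosome 8, 22674555 to 22674768) had subfertile means of 84.9 (lowest), 87.4 (median) and 95.8% (highest) and fertile means of 26.9, 38.1 and 51.5%. The difference was 50.6 points (adjusted p = 0.000956). IFN-tau-c1 (1 site upstream and 2 downstream, chromosome 8, 22633293 to 22633971) had 74.8, 84.4 and 89.1% against 29.6, 40.3 and 52.0% (difference 42.2 points, adjusted p = 0.00287). Its upstream site, at -78 bp, had 85.2 against 44.7%, and its downstream sites 81.8 against 38.8%. In these 3 genes every one of the 10 sites separated the groups and none was wide-range. The calls held under each alternative that could still test them, 17 for IFN-tau-c1 and 18 for each of the other genes. None of the 3 could be tested with at least 5 sites. Genes of this family are related in sequence, and the placement of reads among them is not described in the labels.

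**Figure D3:**
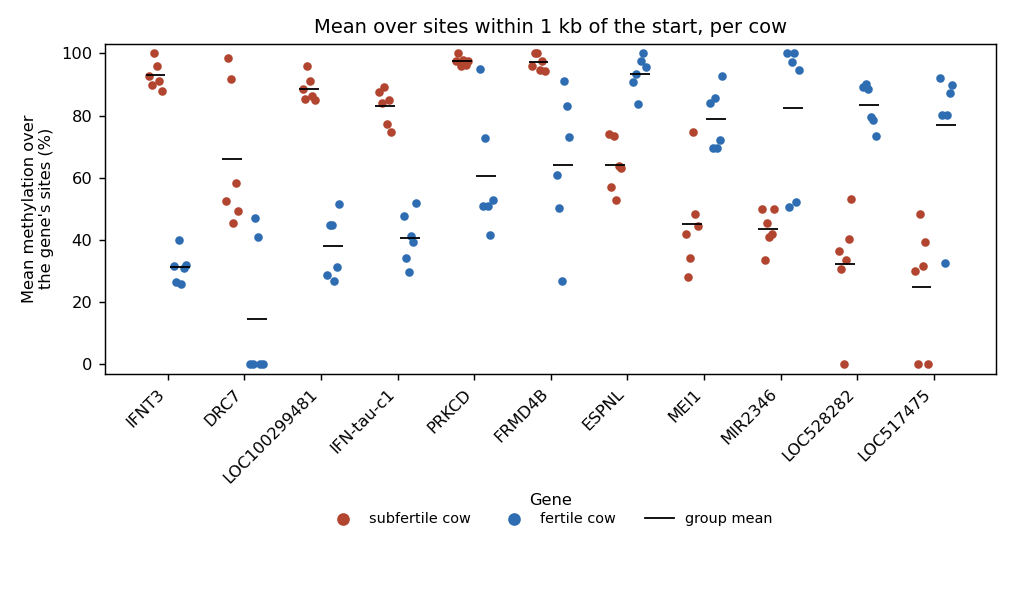
Mean methylation over the sites within 1 kb of the start (%) in each cow, for the 10 called genes with a symbol and MIR2346, which was not called. Points are cows (red subfertile, blue fertile) and black lines are group means. The 3 interferon genes IFNT3, LOC100299481 and IFN-tau-c1 show tight, well separated groups, whereas MEI1, DRC7 and LOC517475 overlap.

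The other called genes with a higher mean in subfertile cows were PRKCD, FRMD4B and DRC7. PRKCD encodes protein kinase C delta, a signalling kinase of immune and other cells. Its 3 sites on chromosome 22 had subfertile means of 95.9, 97.5 and 100% and fertile means of 41.7, 51.9 and 94.9% (adjusted p = 0.0319). The gap between the groups was narrow, as fertile cow 1 lay at 94.9%, and no single site of the 3 separated the groups. FRMD4B, a scaffold protein with a FERM domain, had sites before 2 starts and means of 94.4, 96.8 and 100% against 26.7, 67.0 and 91.1% (adjusted p = 0.0398). No single site of FRMD4B separated the groups, 2 of its 3 sites were wide-range, and the groups overlapped at each of the starts taken alone. In both genes the subfertile cows were uniformly methylated and the fertile cows widely spread. The call of PRKCD was lost without subfertile cow 6 (adjusted p = 0.0539), and that of FRMD4B without subfertile cow 1, 3 or 6 or fertile cow 1 or 2 (adjusted p up to 0.0578). DRC7 (4 upstream sites, chromosome 18, 25678391 to 25678601) had 45.5, 55.5 and 98.6% against 0, 0 and 47.1% (difference 51.3 points, adjusted p = 0.0495), and all 4 sites were wide-range.

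Lower in subfertile cows were ESPNL, LOC528282, MEI1 and LOC517475. ESPNL, espin-like, belongs to the actin-bundling proteins of sensory hair cells. Its 4 sites 279 to 806 bp downstream (chromosome 3, 117442278 to 117442805) had subfertile means of 52.9, 63.5 and 74.1% and fertile means of 83.8, 94.5 and 100%, a difference of -29.4 points (adjusted p = 0.0219). These groups did not overlap, and no site was wide-range. LOC528282 (3 upstream sites, chromosome 19, 6395376 to 6395573) had 0, 35.1 and 53.0% against 73.5, 84.1 and 90% (difference -50.9 points, adjusted p = 0.0354), and all 3 sites separated the groups and were wide-range. Its call was lost without subfertile cow 1 (adjusted p = 0.0504) and with 1 point added in the log ratio (0.0564).

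MEI1, which is needed to form the DNA breaks that start meiotic recombination, had 3 sites from -8 to 121 bp of its start (chromosome 5, 112755740 to 112755869). The subfertile means were 28.0, 43.2 and 74.7% and the fertile means 69.5, 78.1 and 92.8% (difference -33.7 points, adjusted p = 0.0481), so the groups overlapped. LOC517475, a gene like the organic anion transporter SLC22A9, had 0, 31.0 and 48.5% against 32.6, 83.8 and 92.2% (difference -52.1 points, adjusted p = 0.0498). The call was lost in 15 of 18 alternatives for each of these and in 13 of 18 for DRC7, including the fit without chromosome 8, with adjusted p up to 0.0676, 0.0666 and 0.0687. Among the fits that left out 1 cow, MEI1 stayed called without subfertile cow 4, LOC517475 without fertile cow 3, and DRC7 without subfertile cow 4, fertile cow 3 or fertile cow 4, and each lost its call without any other cow. The microRNA gene MIR2346, taken because its groups did not overlap, had 33.6, 43.7 and 50% against 50.6, 95.9 and 100% and was not called (adjusted p = 0.0527).

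The 5 genes with the most sites showed how levels were laid out along a start, and none was called. PC encodes pyruvate carboxylase, the mitochondrial enzyme that feeds oxaloacetate into gluconeogenesis. It had 24 sites around 2 starts on chromosome 29 and subfertile means of 42.1, 45.8 and 66.3% against 65.8, 67.8 and 69.9% (adjusted p = 0.0545). Around the start at lower coordinates 10 sites averaged 46.4 ± 4.35 and 48.8 ± 2.35%, with 5 higher and 5 lower. Around the other start 14 sites averaged 50.5 ± 14.6 and 80.7 ± 3.19%, with 12 lower in subfertile cows. The gap between the group means in PC was thus at 1 of its starts.

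SNTG2, a syntrophin of the membrane skeleton, had 22 sites around 3 starts on chromosome 8 (112300036 to 112305044), with 12 higher and 10 lower. The starts averaged 46.3 against 44.7%, 31.2 against 58.9% and 73.9 against 32.6%, so the direction turned between starts, and 21 of the 22 sites were wide-range (adjusted p = 0.295). In the other 3 genes every site had 1 direction. Wide-range sites were 14 of 15 in TMEM177, 12 of 13 in SDK1 and 12 of 12 in LOC112444807. TMEM177, a mitochondrial protein of cytochrome c oxidase assembly, had 15 sites on chromosome 2, all lower, with means of 3.81, 48.0 and 97.1% against 52.1, 95.3 and 97.9% (adjusted p = 0.0987). The cell adhesion gene SDK1 had 13 sites around 2 starts on chromosome 25, all lower, at 31.5 ± 21.6 against 75.6 ± 20.7% (adjusted p = 0.0545). LOC112444807, a gene of the U6atac RNA of the minor spliceosome, had 12 sites on chromosome 28, all higher, at 77.5 ± 24.5 against 29.9 ± 35.6% (adjusted p = 0.0616). In these 3 genes upstream and downstream means were close, as in SDK1 with 31.5 and 31.9% in subfertile and 75.3 and 75.9% in fertile cows.

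**Figure D4:**
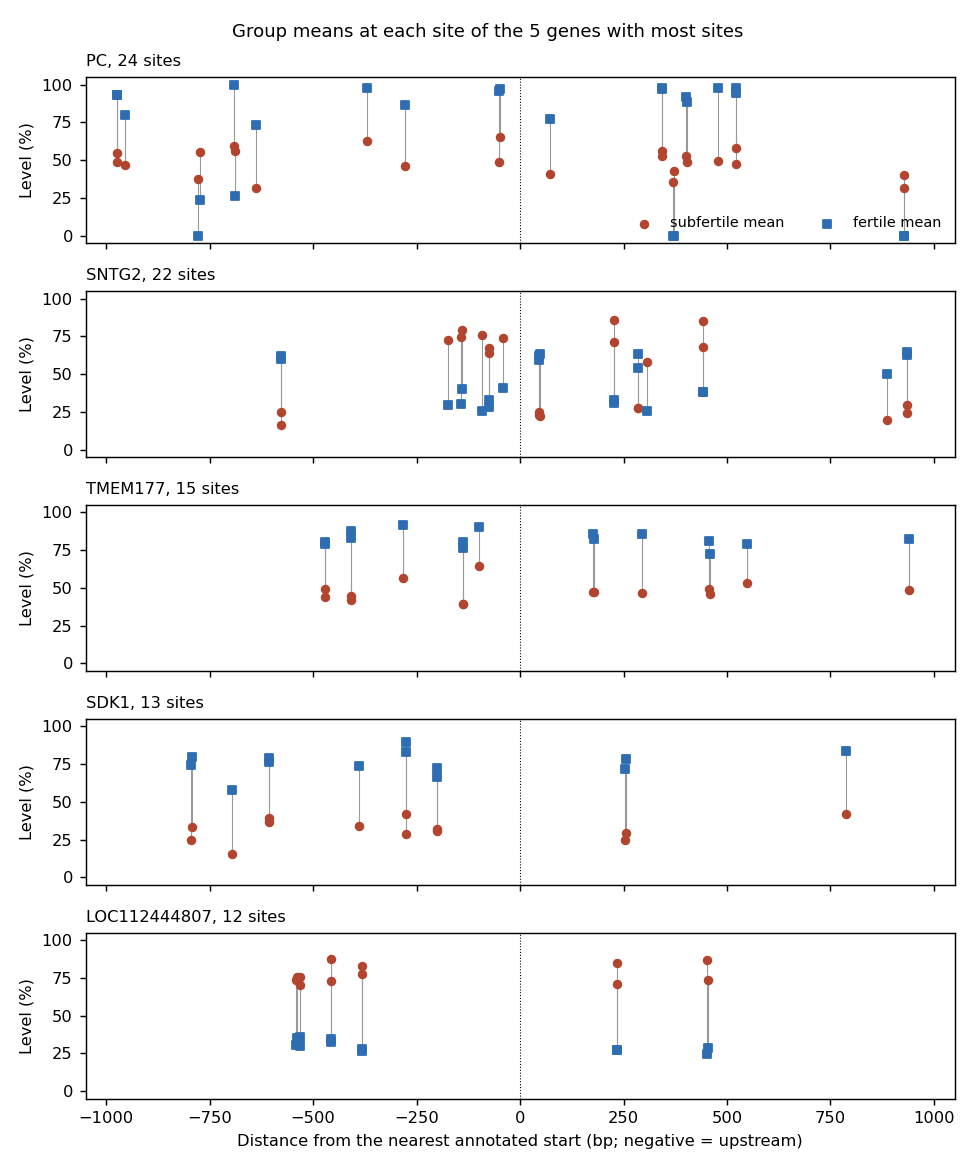
Group mean methylation level (%) at each site of the 5 genes with the most sites, against distance (bp) from the nearest annotated start, sites of different starts being drawn on 1 axis. Red circles are subfertile and blue squares fertile means, joined by a grey line per site. The direction is the same on both sides of the start in TMEM177, SDK1 and LOC112444807, and mixed in PC and SNTG2.

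A further 9 genes with a symbol had 8 to 11 sites and were chosen for that number after their values were seen. None of these 9 was called, while 1 of 5 genes without a symbol and with 8 to 11 sites was, at -46.5 points (adjusted p = 0.0319). In PLA2G16, a phospholipase gene, the 6 upstream sites averaged 62.8 against 23.8% and the 4 downstream sites 45.4 against 50.9%. RSPH6A, a radial spoke protein of motile cilia and sperm tails, had 35.5 against 67.3% upstream and 48.5 against 47.7% downstream. In both genes the gap between the group means lay upstream, but the groups overlapped there and every site was wide-range. Downstream, each gene had 2 sites higher and 2 lower in subfertile cows, so the close means there average opposite differences. Upstream, the subfertile and fertile cows ran from 37.1 to 92.8% and from 0 to 52.3% in PLA2G16. In RSPH6A they ran from 20 to 77.2% and from 50.7 to 78.75%. SELP, the selectin of platelets and endothelium, had 8 sites at 31.8 ± 16.2 against 59.7 ± 28.6%, with 7 lower in subfertile cows and overlapping groups. The groups of DISC1, KIF13B, SH3TC1, OR10H4T, LOC512119 and LOC112443607 overlapped too.

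Genes of olfactory receptors, a large family of clustered genes whose products detect odours, were the largest of the families counted and leaned to one side. The family was singled out after its values were seen. It had 171 sites near the starts of 111 genes on 14 chromosomes, and 122 of the sites (71.3%) were higher in subfertile cows, against 52.1% of all deposited sites. The subfertile cows had means of 53.1 (lowest), 60.6 (median) and 62.1% (highest) and the fertile cows 41.4, 45.5 and 49.0%. These means did not overlap, at 58.8 ± 4.08 against 45 ± 2.67%. Every site was selected to differ between these cows, so a gap in the means follows from the lean and is no added support. Of the single sites 3 (1.75%) separated the groups, against 3.1% of all deposited sites. Limma called 0 of the 15 genes tested, against 3.01% of all units. An unadjusted limma p under 0.05 was found in 9 of the 15, against 58.8% of the 296 tested genes near starts and 44.4% of all units.

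The lean was present upstream (75.9% of 54 sites) and downstream (69.2% of 117). Much of it came from 3 chromosomes, since chromosome 7 gave 36 of 41 sites higher, chromosome 10 gave 17 of 19 and chromosome 15 gave 27 of 38. Chromosomes 3, 23 and 11 also leaned this way, with 12 of 16, 7 of 8 and 4 of 5 sites higher. On chromosome 29 the count was 3 of 12, on chromosome 5 it was 4 of 12 and on chromosome 18 it was 0 of 3. Without chromosomes 7, 10 and 15 the remaining 73 sites were 57.5% higher, at 54.9 ± 7.82 against 51.2 ± 6.40%, with overlapping groups. The 3 chromosomes left out together leaned more than the rest, so the share had to fall. In blocks of 1 Mb, 26 of 41 had mostly higher and 12 mostly lower sites, and 3 were tied. At 1 to 3 kb from these starts the share was 59.9% of 324 sites. Over all 1765 other deposited sites nearest to genes of the family it was 68.7%, so the lean was also present away from starts. The cow means over these sites, 56.6 ± 4.17 against 44.2 ± 2.20%, did not overlap, a gap that again follows from the lean. Sites near the starts of all other genes were 49.6% higher, at 56.1 ± 1.07 against 56.5 ± 0.609%.

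**Figure D5:**
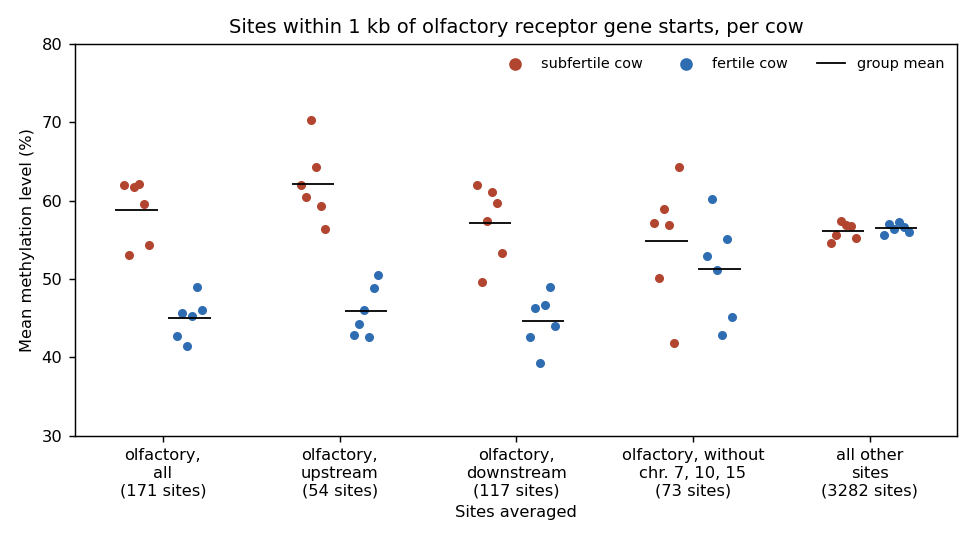
Mean methylation level (%) of each cow over sites within 1 kb of olfactory receptor gene starts and over all other sites near starts. Points are cows (red subfertile, blue fertile), lines are group means, and the axis runs from 30 to 80%. The groups are apart for all 171 sites and on both sides of the start, and overlap without chromosomes 7, 10 and 15 and over the 3282 other sites. The gap for the 171 sites follows from their selection and their lean in direction.

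Among other kinds of gene, protein-coding genes held 2144 sites near starts, of which 51.2% were higher, and microRNA genes held 120 sites in 75 genes with 54.2% higher, at 61.9 ± 5.12 against 56.9 ± 3.43%. Genes of small nuclear RNAs had 114 sites with 47.4% higher, and pseudogenes 85 sites with 68.2% higher. Genes named TMEM had 41 sites with 12.2% higher, of which TMEM177 supplied 15. In pregnancy-associated glycoprotein genes, expressed by the ruminant placenta, 5 of 7 sites in 4 genes were higher in subfertile cows. These types came from a RefSeq table matched by gene number, and 897 sites had no match.

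The gene lists, of blood cells and of other functions, held few genes with a site near a start, as did the whole table. All gene lists together held 190 genes, of which 116 had a deposited site anywhere and 13 had one within 1 kb of a start. Of the 12709 symbols of the table, 11.5% had a site within 1 kb, a share close to that of the listed genes with a deposited site. None of the 15 T cell, 10 B cell or 17 DNA methylation genes had one, and the cell makeup of the samples was not checked. NKG7, a granule protein of natural killer cells, had 1 site 968 bp downstream with subfertile values of 69.2, 78.9 and 86.7% against 0, 47.7 and 54.5%, without overlap. Of 4 natural killer cell genes with sites, 1 was higher and 3 lower in subfertile cows. The serine protease gene GZMB had 25.2, 45.3 and 91.9% against 76.3, 83.2 and 95% over 2 strands of 1 CpG, and the receptor gene KLRD1 0, 32.1 and 90% against 38.9, 79.9 and 90%. NKG7 thus lay higher and the other natural killer cell genes named here lower in subfertile cows, the latter with overlap.

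Among the listed genes of immunity, reproduction and metabolism, 2 had enough sites to be tested as a mean and neither was called. IRF5, a transcription factor of interferon responses, had 39.9, 52.1 and 100% against 0, 24.0 and 51.8% over 3 sites (adjusted p = 0.0685). INSIG1, which restrains sterol synthesis, had 11, 54.2 and 76.4% against 1.39, 7.69 and 36.7% over 6 upstream sites (adjusted p = 0.0555). The groups overlapped in both. LHCGR, the luteinizing hormone receptor gene of the ovary, had 1 site 840 bp downstream at 68.5 ± 25.9 against 32.6 ± 25.6%. HSD17B1, an enzyme of oestradiol synthesis, had 1 site at -896 bp with 60.1 ± 32.3 against 91.8 ± 11.7%. In these genes too the groups overlapped.

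The remaining genes named from the lists had 1 site each. The chemokine receptor gene CCR2 had 96.4 ± 8.75 against 51.1 ± 40.9% and the scavenger receptor gene MSR1 97.7 ± 3.57 against 60.3 ± 31.6%. AKT2, a kinase of insulin signalling, had 87.6 ± 26.8 against 64.7 ± 25.5% at 17 bp after the start. IL2RB, a subunit of the interleukin-2 receptor, had 75.4 ± 39.1% against 100% in every fertile cow. PEG3, an imprinted gene expressed from the paternal copy, had 24.2 ± 27.6 against 60.5 ± 39.7% (n = 5 fertile cows) at -141 bp. In each of these the fertile and subfertile cows shared part of their range.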

How the data were processed

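The deposited site table gives the percent methylated per cytosine and cow, with the authors' difference in percentage points, p-value and q-value, per the file headers. The submitters' processing notes list the tools fastp 0.23.1, Bismark, DRAGEN and ChIPseeker 1.32.1, without their roles, and the assembly ARS-UCD1.2. The tool behind the deposited q-values and any read minimum were not given in the sources used here. With no read counts, the logistic model on reads was replaced, as foreseen, by limma 3.58.1 (R 4.3.3). The response was the log2 ratio of percent methylated to percent unmethylated, 5 points added to each, the model held group alone, and p was adjusted by Benjamini-Hochberg over all 216990 sites or all 12843 units. A site without a value in a cow was fitted on the other cows (0.579 to 5.88% of the sites near starts per cow). A unit is the mean per cow over 3 or more sites of 1 gene and region class. The adjusted p had to reach 0.01 for sites and 0.05 for units.

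Genes were named by rule: called units with a symbol (up to 10 per direction, topped up to 5 with units whose groups do not overlap), the 5 upstream and 5 downstream sites with the largest differences without overlap, the 5 genes with most sites, and up to 3 members per gene list. Members, lists and rules were chosen with earlier results of these data known. The lists covered T, B and natural killer cells, monocytes and neutrophils, platelets and erythroid cells, cytokines and receptors, interferon and antigen presentation, reproduction and steroids, insulin and growth, DNA methylation and imprinted genes. Gene types came from a RefSeq table of another build, matched by Entrez number. Sequence near starts was not analysed here. The fitting code was tested on simulated sites whose spread between cows was set well below that of the real sites. That check covers the code and not its power on these data.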

Additional observations from a re-analysis of the deposited data

Results flagged for a closer look

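Of 104 groups of 6 cows examined for a value far from the others (Dixon's criterion), 10 held one, where chance gives about 1 in 20. LOC517475 was at 32.6% in fertile cow 3, the lowest of its group. The mean of PC was 66.3% in subfertile cow 4, the highest. LOC112443607, a U6 spliceosomal RNA gene, was at 41.7% in subfertile cow 2 and listed at 0 in the other subfertile cows. GZMB was at 91.9% in subfertile cow 2 and KLRD1 at 90% in subfertile cow 4, each the highest of its group. CCR2 was at 78.6% in subfertile cow 6, AKT2 at 33.3% in subfertile cow 1 and HSD17B1 at 70.0% in fertile cow 6, each the lowest. Fertile cow 6 also had the lowest fertile value of the SGO1 site, 36.4%, and the highest fertile value of the IFNT3 site at 697 bp, 45.5%.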

How the results depend on the processing

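No paired analysis was possible because the labels carry no numbers or sources shared between the groups. Single sites called rose from 0 to 2 without wide-range sites and stayed at 0 in the other settings. Called genes, 19 as reported, numbered 11 with 1 point added, 55 on plain percent, 12 with at least 5 sites, 49 (of 69) without wide-range sites, 3 with the threshold at 0.01 and 40 (of 59) over sites with a deposited difference of at least 40 points. Leaving out each cow gave 6 to 30. With at least 2 sites the count was 26 (of 770), and it was 13 without chromosome 8, a setting added after the data were seen. Of the 19, 9 were among the 49 and 7 among the 40. Each of these settings changes the units tested or their values, and the cause of each shift was not tested. Downstream exceeded upstream by 2.56 points within 500 bp and by 0.512 without wide-range sites. At a deposited difference of at least 40 points, 48.2% of upstream and 48.1% of downstream sites were higher in subfertile cows. Over the settings tried, the share without overlap ran from 2.2 to 3.28% upstream and from 3.83 to 5.63% downstream. The lowest shares were for sites with values in all cows and the highest for 1 mean per gene and side. Of 197 recomputed values of named genes 137 stayed on their side of the threshold, 55 lost the call, 5 gained it, and 0 turned direction. Depth is unknown, so no read minimum could be tried.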
